A study of Oryza sativa Japonica Group with 4 samples.

Results

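Glutaredoxins that may act as redox partners of TGA-type bZIP factors were followed in young rice panicles with a hairpin against OsbZIP47. The group holds 6 of the 37862 genes in the count table, chosen by identifier: GRX6 (Os01g0667900), GRX16 (Os05g0198200), GRX20 (Os08g0558200), MIL1 (Os07g0151100) and a pair called ROXY genes, Os02g0512400 and Os04g0393500. RNA-Seq was available for 4 libraries, namely OsbZIP47KD panicles of the dsRNAi line 14 (n = 2) and wild-type (WT) panicles (n = 2). All were from cultivar TP309 and 0.1 to 0.5 cm long, and each library was made from a tissue pool. OsbZIP47KD plants transcribe, from the maize ubiquitin promoter, a hairpin RNA against a stretch of the 3′ UTR of OsbZIP47. The WT libraries are labelled only as wild type, and whether these plants carried a control vector is not stated. Both OsbZIP47KD libraries come from 1 transgenic line, so effects of that line and of the knockdown cannot be told apart.

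Glutaredoxins are small enzymes that use glutathione to reduce disulfide bonds or to remove glutathione from the cysteines of other proteins. The CC-type class is found in land plants and is named for neighbouring cysteines in its active site. Its Arabidopsis founder ROXY1 acts in petal formation and binds the TGA factor PERIANTHIA, to which OsbZIP47 is related, and in maize the CC-type glutaredoxin MSCA1 acts with FEA4, the maize counterpart of OsbZIP47. In rice, MIL1 is a CC-type glutaredoxin needed for the start of meiosis in the anther.

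The names of the members were checked as far as the annotation allowed. The gene table of the study describes GRX6 and GRX16 as glutaredoxins of subgroup III, and GRX20 as a protein with a glutathione S-transferase N-terminal domain. The CC-type active site of the 6 proteins was not checked here. Os02g0512400 was listed as ROXY1 and Os04g0393500 as ROXY2. The RefSeq gene table has the opposite order by chromosome, with the synonym ROXY2 on chromosome 2 and ROXY1 on chromosome 4, and it does not pair these entries with RAP identifiers. Both genes are therefore called by their identifiers. GRX6, GRX16 and GRX20 were named by the study as changed in these same libraries, so their direction here is not independent evidence. MIL1, Os02g0512400 and Os04g0393500 were not in its list of changed genes.

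The libraries held 3839165 and 4063036 counts in OsbZIP47KD and 5611969 and 5100799 counts in WT. Of all genes, 25289 passed the expression filter and were tested with edgeR's quasi-likelihood test, where 164 had an adjusted p under 0.05. OsbZIP47 itself had 1003 and 919 counts in the libraries labelled OsbZIP47KD and 471 and 261 counts in WT (log2 fold change 1.77, standard error or SE 0.25, edgeR quasi-likelihood adjusted p = 0.0141). It did not pass when either OsbZIP47KD library was left out. Reads of the hairpin can count toward the gene, so this total does not check the labels, and the directions below rest on them. By qRT-PCR, the study reported lower endogenous OsbZIP47 transcripts in pooled panicles of this line than in WT. That assay was not analysed here. OsbZIP47KD replicate 2 stood apart in the sums of marker lists of the inflorescence, whose identifiers were assigned from general knowledge of rice. A list of 5 stamen and carpel regulators summed to 52.3 and 116 CPM (counts relative to the TMM-scaled library size) in OsbZIP47KD replicates 1 and 2, and to 40.4 and 44.2 CPM in WT. A list of 10 panicle and floret meristem genes summed to 744 and 435 CPM in OsbZIP47KD and to 803 and 697 CPM in WT. Both lists were detected in every library, and none of their members passed the test. Between OsbZIP47KD replicates 1 and 2, most of the rise of the stamen and carpel sum lay in OsMADS16 (23.3 and 70.8 CPM). The fall of the meristem sum came mostly from OsMADS14 (178 and 55.6 CPM) and OsMADS15 (217 and 82.5 CPM). OsMADS1 (45.8 and 67.6 CPM), OsMADS6 and FZP were higher in replicate 2, so the meristem list did not move one way. A list of 6 genes of green leaf summed to 102 and 141 CPM in OsbZIP47KD and 171 and 233 CPM in WT, with 1 member called lower (the chlorophyll-binding protein gene CAB1R) and none higher. The lower sum came from CAB1R and CAB2R, with log2 fold changes of -2.40 and -1.23, while the other 4 genes had values of 0.35 to 0.93, so the list did not move one way. A list of 6 anther genes summed to 241 and 286 CPM in OsbZIP47KD and 286 and 203 CPM in WT. None of its 4 tested members was called. Their log2 fold changes ran from -0.11 (PAIR2) to 0.39 (MEL1), so the list did not move one way. The tapetum regulator TDR was under the expression filter, with 4 and 37 counts in OsbZIP47KD against 0 and 4 in WT. Its difference rested mostly on OsbZIP47KD replicate 2.

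None of the 6 members passed an adjusted p under 0.05 in edgeR's quasi-likelihood test, where 0.649% of all tested genes passed. GRX6 had the lowest level in OsbZIP47KD relative to WT and GRX20 the highest, and both had an unadjusted p under 0.05, as did 7.27% of all tested genes on the lower and 6.85% on the higher side. DESeq2 and edgeR's exact test called both genes, GRX6 as lower and GRX20 as higher, and limma on the deposited normalized values called neither. The unadjusted p of limma was 0.00151 for GRX6 and 0.00257 for GRX20. Limma did not call OsbZIP47 either. The share of all genes that limma called was not computed, so its missing calls cannot be read as particular to these members. By DESeq2, 0.55% of all tested genes were called higher and 1.18% lower, and by the exact test 1.35% and 1.71%. With no expression filter both members were called too, beside 0.643% of genes higher and 1.5% lower, and with replicate number as a block GRX20 was called, beside 0.735% higher. The thresholds of the study were an absolute log2 fold change of 1 or more and an unadjusted p up to 0.05. Under them the quasi-likelihood fit gave 2 of 6 members, GRX6 and GRX20, beside 7.12% of all tested genes. The study reported GRX6 as lower and GRX16 and GRX20 as higher. GRX16 did not pass these thresholds here, with an unadjusted p of 0.0574 in edgeR's quasi-likelihood test. All 6 members were tested, but only 3 of them (GRX6, GRX16 and Os02g0512400) were above the expression filter in both WT libraries. GRX20, Os04g0393500 and MIL1 passed it through the OsbZIP47KD libraries.

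**Figure D1:**
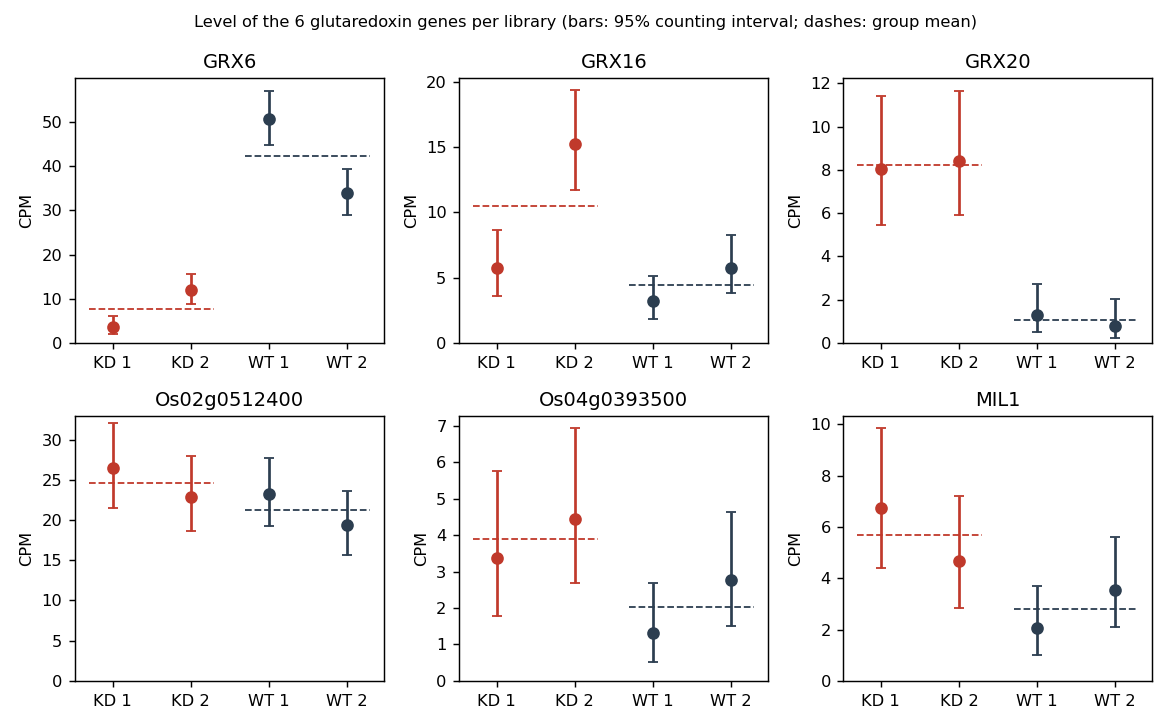
Level of each of the 6 glutaredoxin genes in CPM (vertical axis, starting at 0, own scale per panel) in OsbZIP47KD replicates 1 and 2 and WT replicates 1 and 2. Points are libraries, bars are 95% Poisson counting intervals and dashes are group means. GRX6 lies between 3.63 and 11.9 CPM in OsbZIP47KD and between 34.0 and 50.7 CPM in WT, while the Os02g0512400 libraries of both groups lie between 19.4 and 26.4 CPM.

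GRX6, a glutaredoxin that has been reported to affect hormone and nitrogen status in rice, carried the largest counts of the group in WT. It had 14 and 51 counts in OsbZIP47KD replicates 1 and 2 and 271 and 172 counts in WT replicates 1 and 2, which is 3.63 and 11.9 CPM against 50.7 and 34.0 CPM. Both OsbZIP47KD libraries were below both WT libraries, as were 23.5% of all tested genes. The group means were 7.78 ± 5.87 CPM in OsbZIP47KD and 42.4 ± 11.9 CPM in WT (SD, n = 2 each). The log2 fold change was -2.41 (SE 0.49, 95% interval -3.52 to -1.31, edgeR quasi-likelihood adjusted p = 0.0760), equal to 0.188 of the WT level.

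The OsbZIP47KD libraries differed from each other in GRX6 by 3.29-fold. Their 95% counting intervals, 1.98 to 6.08 CPM in replicate 1 and 8.88 to 15.7 CPM in replicate 2, did not overlap. Only 4.58% of tested genes had a larger ratio between the OsbZIP47KD libraries. The call depended on which library was present. Without OsbZIP47KD replicate 2 the log2 fold change was -3.54 and passed (edgeR quasi-likelihood adjusted p = 0.0139), without WT replicate 2 it was -2.67 and passed (edgeR quasi-likelihood adjusted p = 0.0360), and without OsbZIP47KD replicate 1 it was -1.80 and did not (edgeR quasi-likelihood adjusted p = 0.0856). Of all tested genes, 0.198% were called lower without OsbZIP47KD replicate 2, 1.71% without WT replicate 2, 0.217% without OsbZIP47KD replicate 1 and 0.506% without WT replicate 1. Over all 14 alternatives the adjusted p ran from 1.82e-04 to 0.233, and the log2 fold change was below 0 in all 14.

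GRX20 was low in WT and better detected in both OsbZIP47KD libraries. Overexpression of GRX20 has been linked to tolerance of bacterial blight and abiotic stress in rice. The gene had 31 and 36 counts in OsbZIP47KD and 7 and 4 counts in WT, which is 8.03 and 8.42 CPM against 1.31 and 0.790 CPM. The groups did not overlap, with OsbZIP47KD above WT as for 22.4% of all tested genes. The replicates of each group lay within counting error of each other, and the ratio between the OsbZIP47KD libraries was 1.05. Group means were 8.22 ± 0.274 CPM in OsbZIP47KD and 1.05 ± 0.368 CPM in WT (SD, n = 2 each).

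For GRX20 the log2 fold change was 2.94 (SE 0.70, 95% interval 1.42 to 4.47, edgeR quasi-likelihood adjusted p = 0.0886), or 7.69-fold. The 11 WT counts leave this fold wide, between 2.67 and 22.2. GRX20 kept a log2 fold change of 2.63 to 3.36 with 1 library left out. These fits leave 1 library in a group, and the share of all genes they called higher was not computed. Only the effect size is therefore read from them. Over all 14 alternatives its adjusted p ran from 0.00437 to 0.252.

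GRX16, described as a subgroup III glutaredoxin, was not separated between the groups. It had 22 and 65 counts in OsbZIP47KD and 17 and 29 counts in WT, or 5.70 and 15.2 CPM against 3.18 and 5.73 CPM. OsbZIP47KD replicate 1 lay within the WT range and replicate 2 alone was above it. The log2 fold change was 1.25 (SE 0.59, 95% interval -0.05 to 2.54, edgeR quasi-likelihood adjusted p = 0.374). Without OsbZIP47KD replicate 2 it was 0.36, and without OsbZIP47KD replicate 1 it was 1.79. The library that was high in GRX16 was the one with 116 CPM of stamen and carpel regulators, against 52.3 CPM in the other OsbZIP47KD library, and the part of this difference in the GRX16 value was not tested. In these bulk libraries, a change in the number of cells that express a gene and a change in RNA per cell cannot be told apart.

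**Figure D2:**
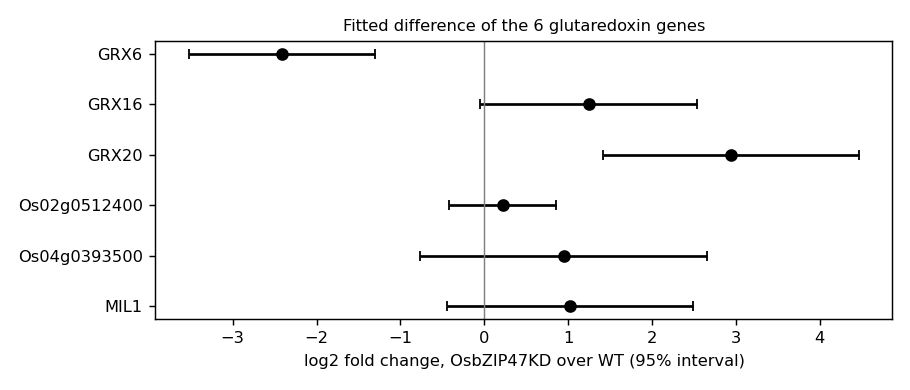
Fitted log2 fold change of OsbZIP47KD over WT (horizontal axis) for each of the 6 genes, with 95% intervals from edgeR's quasi-likelihood fit. The GRX6 interval, -3.52 to -1.31, lies below 0 and the GRX20 interval, 1.42 to 4.47, above 0, while the other 4 intervals include 0.

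Of the pair of ROXY genes, Os02g0512400 was the best counted member that did not differ. Proteins of the ROXY class act in petal and anther development in Arabidopsis. Os02g0512400 had 102 and 98 counts in OsbZIP47KD and 124 and 98 counts in WT, or 26.4 and 22.9 CPM against 23.2 and 19.4 CPM, and the groups overlapped. The log2 fold change was 0.22 (SE 0.29, edgeR quasi-likelihood adjusted p = 0.794). Its 95% interval, -0.42 to 0.86, leaves room for a level between 0.748 and 1.82 times that of WT.

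Os04g0393500 was detected at few counts, with 13 and 19 in OsbZIP47KD and 7 and 14 in WT. These are 3.37 and 4.44 CPM in OsbZIP47KD against 1.31 and 2.77 CPM in WT, so the groups did not overlap. The counting intervals of the nearest libraries did, with 1.79 to 5.76 CPM in OsbZIP47KD replicate 1 and 1.51 to 4.64 CPM in WT replicate 2. The log2 fold change was 0.95 (SE 0.79, 95% interval -0.77 to 2.66, edgeR quasi-likelihood adjusted p = 0.639). The interval holds both 0 and values above 2.

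MIL1, the anther gene, had 26 and 20 counts in OsbZIP47KD and 11 and 18 counts in WT, or 6.73 and 4.68 CPM against 2.06 and 3.56 CPM. Both OsbZIP47KD libraries were above both WT libraries, but OsbZIP47KD replicate 2 was within counting error of WT replicate 2. The log2 fold change was 1.03 (SE 0.68, 95% interval -0.44 to 2.5, edgeR quasi-likelihood adjusted p = 0.532). MIL1 and GRX16 did not share their high library. MIL1 was higher in OsbZIP47KD replicate 1 and GRX16 in OsbZIP47KD replicate 2. In all, 4 of the 6 members had groups that did not overlap, 3 with OsbZIP47KD above WT and 1 below. With 6 genes this is not far from the background, since 45.9% of all tested genes did not overlap in either direction. The 3 above WT (GRX20, Os04g0393500 and MIL1) passed the expression filter through the OsbZIP47KD libraries. The filter favoured that direction, so their number is not evidence for it.

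The make-up of the group was also read within each library, where the scaling between libraries has no part. Per count of Os02g0512400, GRX6 had 0.137 and 0.520 counts in OsbZIP47KD and 2.19 and 1.76 counts in WT. For GRX20 this ratio was 0.304 and 0.367 in OsbZIP47KD and 0.0565 and 0.0408 in WT. The ratios of GRX6 and GRX20 did not overlap between the groups, and neither did that of MIL1, given below. The share of all genes with such a ratio was not computed, and in CPM 45.9% of all tested genes did not overlap. Os02g0512400 was chosen as the base after its values were seen, as the best counted member with overlapping groups, and the ratios are a description. The ratio of MIL1 was 0.255 and 0.204 in OsbZIP47KD and 0.0887 and 0.184 in WT. That of GRX16 was 0.216 and 0.663 in OsbZIP47KD and 0.137 and 0.296 in WT. That of Os04g0393500 was 0.127 and 0.194 in OsbZIP47KD and 0.0565 and 0.143 in WT. In GRX16 and Os04g0393500 the ratios of the groups overlapped.

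The summed counts of the 6 genes were 208 and 289 in OsbZIP47KD and 437 and 335 in WT. GRX6 made up 6.73% (exact 95% interval 3.73 to 11.0%) and 17.6% (13.4 to 22.5%) of them in OsbZIP47KD, and 62.0% (57.3 to 66.6%) and 51.3% (45.9 to 56.8%) in WT. Os02g0512400 took the largest share in both OsbZIP47KD libraries, with 49.0% and 33.9%, against 28.4% and 29.3% in WT. GRX20 accounted for 14.9% and 12.5% in OsbZIP47KD and 1.60% and 1.19% in WT. The shares in a library are parts of a whole, so a lower GRX6 share raises the others. A share can thus rise where the gene's own level does not differ, as for Os02g0512400, with a log2 fold change of 0.22. Levels of different genes were not ranked, since gene lengths of the annotation were not used here, and these intervals cover counting error only.

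**Figure D3:**
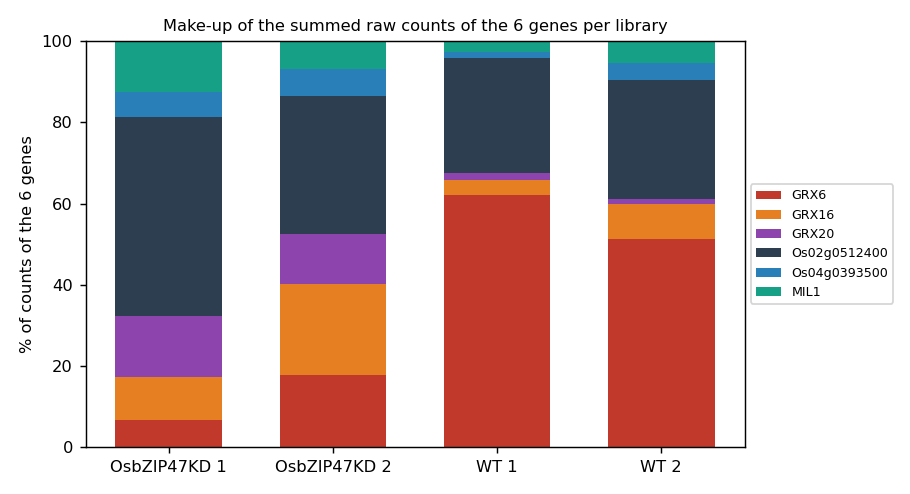
Share of each gene in the summed raw counts of the 6 genes (vertical axis, percent) in OsbZIP47KD replicates 1 and 2 and WT replicates 1 and 2. GRX6 fills 6.73% and 17.6% of the OsbZIP47KD bars and 62.0% and 51.3% of the WT bars.

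Reads of a neighbouring gene could add to a member's count, because the strand setting of the counting was not given in the sources used here. The gene before and the gene after each member in identifier order were therefore read. Of these 12 neighbours, 11 were tested. In the quasi-likelihood fit of edgeR, 0 of the 11 had an adjusted p under 0.05, beside 0.649% of all tested genes. At that share, 0 calls among 11 genes was likely in any case. Identifier order does not show whether genes overlap, and a sharing of reads was not tested. Those of GRX6 had log2 fold changes of -0.23 (Os01g0667800) and -0.10 (Os01g0668000), and those of GRX20 had 0.64 (Os08g0558100) and -0.20 (Os08g0558300), all closer to 0 than the member. For MIL1 the tested neighbour Os07g0151200 had 19 and 57 counts in OsbZIP47KD and 17 and 22 counts in WT, a log2 fold change of 1.29 (edgeR quasi-likelihood adjusted p = 0.371), against 1.03 for MIL1. The neighbour Os05g0198100 of GRX16 had 11 and 11 counts in OsbZIP47KD and 8 and 6 counts in WT. Its log2 fold change was 1.01, against 1.25 for GRX16, and that of the other neighbour, Os05g0198400, was 0.34.

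Genes with a like pattern were sought by the root mean square distance between log2 CPM values centred over the 4 libraries. GRX6 had 3 of 25288 other genes within a distance of 0.25, the nearest being Os02g0452000 at 0.235. GRX20 had 36, with Os04g0455700 nearest at 0.0177, and GRX16 had 196. For MIL1 the number was 684, for Os04g0393500 721 and for Os02g0512400 6719. The values were centred and not scaled, so these numbers largely follow the size of the differences between libraries. A gene with large differences, as GRX6, has few others within the distance, and a nearly flat one, as Os02g0512400, has many. How rare the shape of a pattern is was not tested. With 4 libraries, this likeness is a description only.

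**Figure D4:**
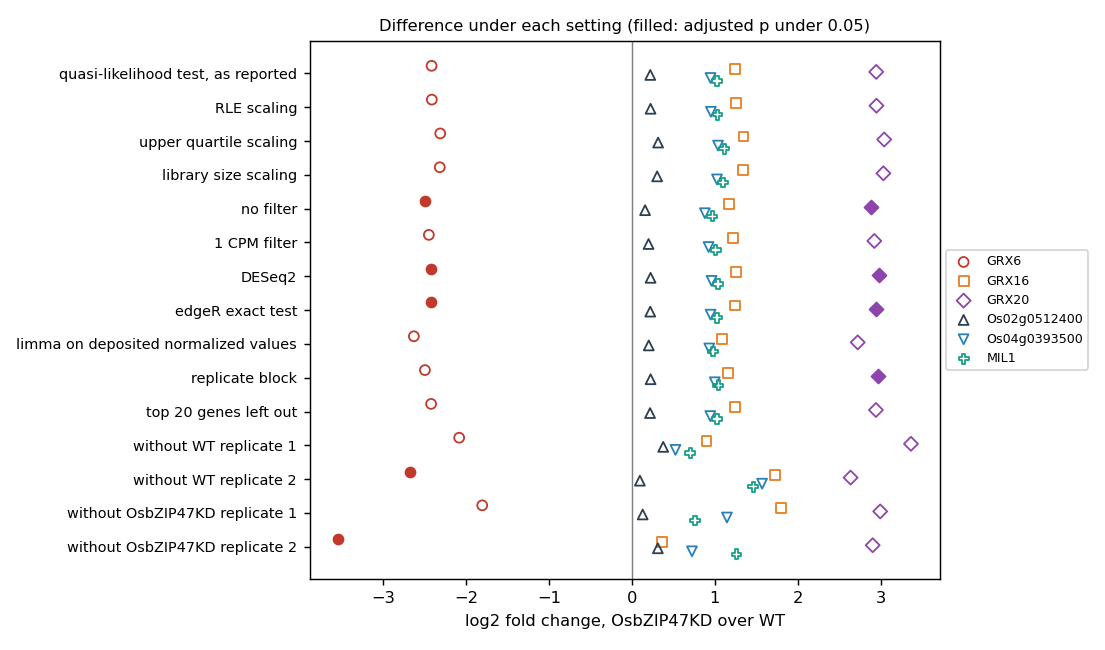
Log2 fold change of OsbZIP47KD over WT (horizontal axis) of the 6 genes in the reported fit and in 14 alternatives (rows), with filled symbols for an adjusted p under 0.05. Only GRX6, in 5 alternatives, and GRX20, in 4, have filled symbols, and each gene stays on 1 side of 0.

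The other glutaredoxins and redox genes at hand were those that the study put in its redox class, which it chose on these samples, so their directions are not independent evidence. Besides the members the class holds 15 genes, of which 13 were tested. In the quasi-likelihood fit of edgeR, 0 were called higher and 2 lower (adjusted p under 0.05), beside 0.127% and 0.522% of all tested genes. At an unadjusted p under 0.05, 6 were higher and 5 lower, beside 6.85% and 7.27% of all tested genes. Since the study chose the class in these libraries by an unadjusted p, these counts were largely set by that choice. DESeq2 called 0 higher and 2 lower, the exact test 0 and 3, and limma 0 and 0. For limma the share called over all genes was not computed.

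The 2 genes called lower were OsGPX1 and OsMDAR4, and they do not give the class a direction. Of its 13 tested genes, the reported fit estimated 7 as higher in OsbZIP47KD and 6 as lower. OsGPX1, a glutathione peroxidase that uses reducing power to remove peroxides, had 171 and 166 counts in OsbZIP47KD and 651 and 418 counts in WT, so that the log2 fold change was -1.29 (SE 0.24, edgeR quasi-likelihood adjusted p = 0.0335). OsMDAR4, a monodehydroascorbate reductase that regenerates ascorbate, had 176 and 146 counts in OsbZIP47KD and 470 and 456 counts in WT, so that the log2 fold change was -1.15 (SE 0.22, edgeR quasi-likelihood adjusted p = 0.0429). In both genes the OsbZIP47KD libraries were below the WT libraries, as in GRX6. Neither gene passed without OsbZIP47KD replicate 1 or without OsbZIP47KD replicate 2, where the number of called genes of the class was 0, and the number was 1 without WT replicate 1 and 4 without WT replicate 2.

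**Figure D5:**
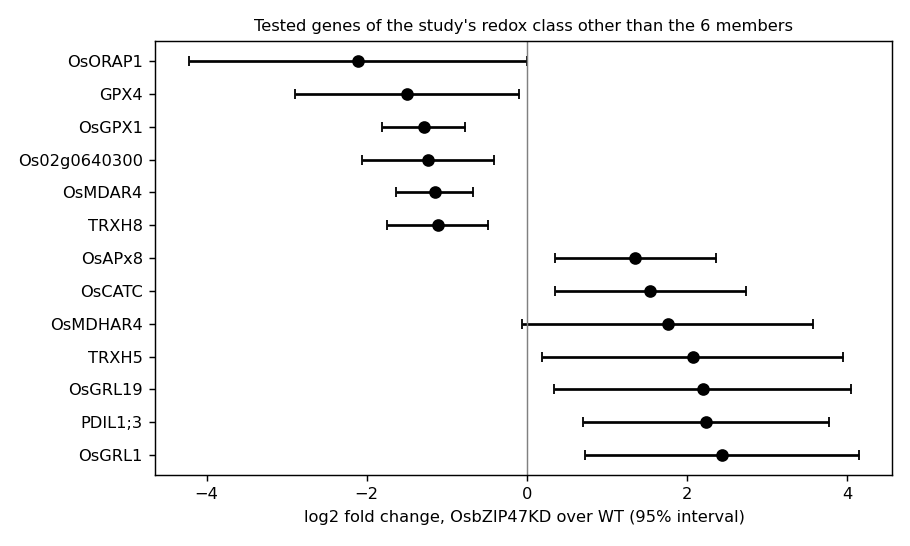
Fitted log2 fold change of OsbZIP47KD over WT (horizontal axis) with 95% intervals for the 13 tested genes of the study's redox class outside the 6 members. OsGPX1 at -1.29 and OsMDAR4 at -1.15 are the genes that passed, and no gene above 0 did.

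The remaining glutaredoxins of that class were 4 genes named OsGRL, all low in WT. OsGRL1 had 13 and 48 counts in OsbZIP47KD and 8 and 6 counts in WT, and OsGRL19 had 11 and 33 in OsbZIP47KD and 8 and 4 in WT. Their log2 fold changes were 2.44 for OsGRL1 (edgeR quasi-likelihood adjusted p = 0.194) and 2.20 for OsGRL19 (edgeR quasi-likelihood adjusted p = 0.268). OsbZIP47KD replicate 2 was the high library in both, as in GRX16. OsGRL17, with 8 and 16 counts in OsbZIP47KD and 4 and 1 in WT, and OsGRL5, with 14 and 8 counts in OsbZIP47KD and 0 and 4 in WT, were under the filter. The counting intervals of OsGRL17 in OsbZIP47KD replicate 1 (0.895 to 4.08 CPM) and WT replicate 1 (0.204 to 1.92 CPM) overlapped. Neither tested gene was called in the reported fit or in any of the 14 alternatives, although both had an unadjusted p under 0.05.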

How the data were processed

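The authors depleted ribosomal RNA, sequenced paired reads on an Illumina instrument, aligned them to the RAP-DB rice genome with STAR v2.5.3a and deposited raw counts per gene. They also deposited normalized values, a score equal to the count times 1 factor per library, rounded, and blank for genes not above 1 CPM in at least 2 libraries. The counting program and its strand setting are not given in the sources used here. Counts were filtered with filterByExpr (minimum count 10, minimum total 15), scaled by TMM and compared by the robust quasi-likelihood test of edgeR (v4.0.16, under R v4.3.3), with Benjamini-Hochberg adjustment over all tested genes. The fit was tested on simulated data. Alternatives were other scalings and filters, the exact test of edgeR, DESeq2 (v1.42.0), a fit by limma (v3.58.1) to log2(normalized value + 1), a replicate block, removal of the 20 most abundant genes, and omission of 1 library at a time over the same tested genes, where the spread for the lone library came from the other group. With 2 libraries a group, an exact permutation test cannot give a p below 0.333, so none was used.

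The members, gene lists and tests were chosen with earlier results of these data known. Named genes were the 6 members, OsbZIP47, called genes of the redox class, and the genes nearest to a member in pattern. Markers, neighbours and OsGRL genes were named beside them. Lists of other CC-type glutaredoxins and of TGA factors by annotation were planned and could not be built, because the reference table holds no RAP identifiers. The glutaredoxins and the redox class come from the gene tables of the study.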

Additional observations from a re-analysis of the deposited data

How the results depend on the processing

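Every member kept its direction under all 14 alternatives. No member was called under RLE, upper quartile or library size scaling, the 1 CPM filter, limma or without the 20 most abundant genes. GRX6 passed an adjusted p under 0.05 with no filter (log2 fold change -2.49), DESeq2 (-2.42) and the exact test (-2.42), and ran from -3.54 to -1.80 with 1 library left out. GRX20 passed with no filter (2.88), DESeq2 (2.98), the exact test (2.94) and the replicate block (2.96). Members called higher therefore numbered 1 in these 4 settings against 0 as reported, and members called lower numbered 1 with no filter, DESeq2 and the exact test, and 0 to 1 with 1 library left out. The labels do not state whether replicate numbers pair the libraries. The difference of replicate 1 minus 2 in OsbZIP47KD correlated with that in WT at r = 0.04 over genes. This shows no strong shared replicate effect and cannot decide whether the libraries were paired. GRX6 had an adjusted p of 0.0514 in edgeR's quasi-likelihood test with the block. Members past the criterion of the study numbered 2 to 3. GRX16 was the member added, as with upper quartile or library size scaling. Called genes of the redox class that were lower, 2 as reported, numbered 1 with upper quartile scaling, 1 with the 1 CPM filter, 4 with no filter, 0 with limma and 0 to 4 with 1 library left out. Of OsbZIP47 and OsTGA10, 1 was called as reported, 0 with limma and 0 to 1 with 1 library left out. Causes were not tested. The list of other CC-type glutaredoxins was not run, and no member was under the filter. One count was worth 0.187 to 0.259 CPM, and the 95% interval of the log2 fold change was widest for Os04g0393500, MIL1 and GRX20, the members with the fewest WT counts.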

Other observations

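OsTGA10, the TGA-type factor that the gene table of the study names, was under the expression filter. It had 4 and 59 counts in OsbZIP47KD and 10 and 11 counts in WT.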
